A study of Homo sapiens with 2 samples.

Results

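The cytosolic ribosomal protein genes encode the proteins that, together with the ribosomal RNAs, build the small (RPS) and large (RPL) subunits of the ribosome outside mitochondria. Their binding sites for Y-box binding protein 1 (YBX1) were taken from a YBX1 PAR-CLIP list by position: a site counted when its midpoint lay, on its own strand, within the span of a protein-coding gene named RPL or RPS with a number, RPLP0, RPLP1, RPLP2 or RPSA in GENCODE release 44. RPS6K kinases, paralogs of the RPL7L1 kind and the mitochondrial MRPL and MRPS genes were left out. Of the 2054 listed sites, 11 met this rule, which is 0.536% of the list (95% Wilson interval 0.299 to 0.957%). They lay in 10 of 81 genes. A further 10 sites lay in processed pseudogenes of these genes and are described separately.

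PAR-CLIP marks the places on RNA that a protein touches. Cells are fed the uridine analog 4-thiouridine (4SU), UV light links the analog to the bound protein, RNase T1 trims the RNA after G, and linked uridines are read as C in sequencing, so that bound RNA carries T-to-C changes. Here, T-REx HEK293 Flp-In cells, a line derived from human embryonic kidney, overexpressed FLAG/HA-tagged YBX1 and received 100 µM 4SU for 12 h. The methods name an antibody to the FLAG tag for the precipitation, whereas the labels name one to YBX1. The 2 replicates were pooled before sites were called, no control library was used, and no read counts or scores accompany the sites. There is therefore no spread between replicates, no test was made, and the intervals given here cover counting error only.

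YBX1 is a cold-shock domain protein that packages mRNAs and affects their translation and stability. Ribosomal protein mRNAs are among the most abundant mRNAs of a growing cell. They are short, carry an oligopyrimidine tract at the 5′ end (the 5′ TOP motif) that ties their translation to growth signals, and have given rise to many processed pseudogenes, which are copies of spliced mRNAs inserted back into the genome. A short read from such an mRNA can therefore match several places in the genome.

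10 of the 11 sites in the genes are printed first, because they are the RNA stretches that the later values describe. They are written 5′ to 3′ on the RNA strand with T for uridine, from the GRCh38 sequence, and capitals mark each CANC, a tetramer in which N is any base, looked for on the RNA strand only, with overlapping matches joined.
RPL15 first site (chr3:23919980-23920003, plus strand): taccattttaaattcacataaaag
RPL15 second site (chr3:23920202-23920223, plus strand): tCAACcctaaaatacttaaccg
RPL27A (chr11:8685708-8685729, plus strand): ctcccaaagCAGCctgtCATCg
RPL36 (chr19:5691422-5691447, plus strand): acaaacgggccctcaaatttatcaag
RPL38 (chr17:74210507-74210529, plus strand): ccatattaaCACCtctttcattg
RPS14 (chr5:150446812-150446838, minus strand): ccctacaCATCaaactccgggccacag
RPS19 (chr19:41871960-41871979, plus strand): cctacacactaactttcctg
RPS24 (chr10:78040674-78040699, plus strand): aacattaataaactaaaaacttcatg
RPS29 (chr14:49576755-49576773, minus strand): atacttactcactaccatg
RPS4X (chrX:72275662-72275683, minus strand): tctccccctCATCattttcctg

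The genes with a site were split evenly between the subunits. In the large subunit 5 of 49 genes held a site (RPL15, RPL27A, RPL36, RPL38 and RPLP0), and in the small subunit 5 of 32 did (RPS14, RPS19, RPS24, RPS29 and RPS4X). Over both, 10 of 81 genes, or 12.3% (95% Wilson interval 6.85 to 21.3%), held at least 1 site, whereas 6.81% of all 20046 protein-coding genes did. All 10 held it in an exon, as 6.18% of all protein-coding genes did. The lower end of the interval lay just above that background, and the list was not restricted to genes expressed in HEK293 cells, so the share was not read as particular to ribosomal proteins. RPL15 was the member with more than 1 site, with 2, and among all protein-coding genes with a site 22.3% held more than 1.

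Other genes of the ribosome and of translation were counted in the same way. Of 78 mitochondrial ribosomal protein genes, 9 held a site (11.5%, 95% Wilson interval 6.19 to 20.5%), namely MRPL17, MRPL42, MRPL50, MRPL51, MRPS2, MRPS7, MRPS18B, MRPS23 and MRPS30. The interval of the cytosolic genes and that of the mitochondrial ones overlapped almost fully. Of 18 other mRNAs with a 5′ TOP motif, 6 held a site (33.3%, 16.3 to 56.3%). These were EEF2, the elongation factor that moves the ribosome along the mRNA, with 6 sites, and EIF2S3, EIF4B, HNRNPA1, TPT1 and VIM with 1 each. The sequence of the EIF4B site occurs 4 times in the genome, so its reads cannot be assigned to EIF4B by sequence alone. Ribosome biogenesis factors held a site in 3 of 27 genes (GNL3, in an intron, NOLC1 and TSR1), and the 8 ribosome-linked genes left out by the naming rule in 1, RSL24D1, with 2 sites. For MRPS23 and RSL24D1, 1 site each has a sequence that occurs 2 times in the genome.

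**Figure D1:**
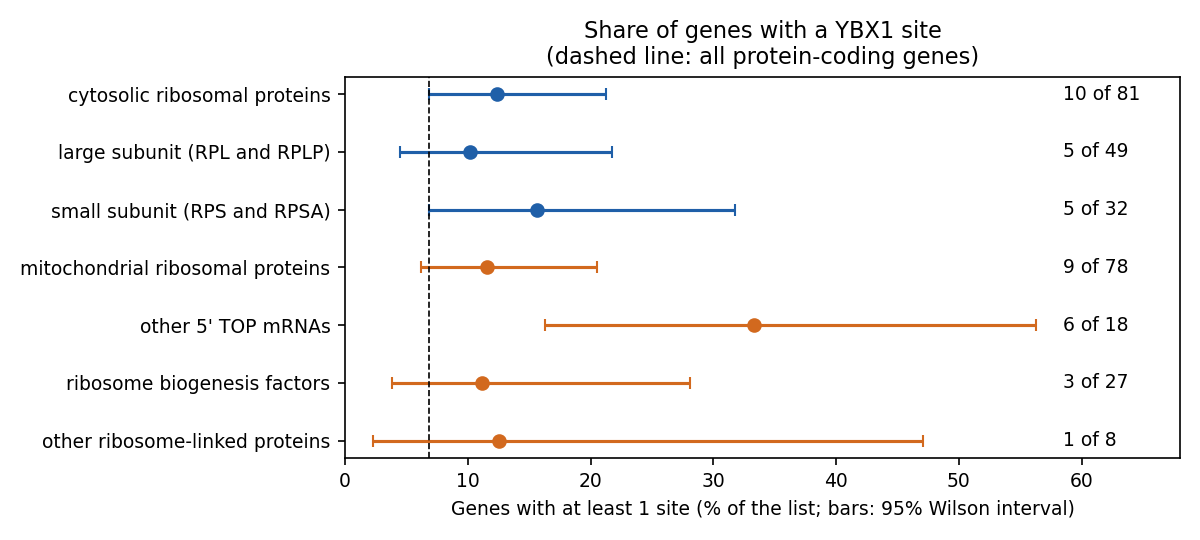
Share of genes with at least 1 YBX1 site in percent for each gene list, with the 95% Wilson interval as bars and the count at the right; the dashed line is the share of all protein-coding genes, 6.81%. The cytosolic ribosomal proteins lie at 12.3%, next to the mitochondrial ones at 11.5%, and the intervals of all lists overlap each other.

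All 11 sites lay in exons, and none in an intron or a 5′ UTR. On 1 transcript per gene, the MANE Select transcript, 5 sites lay in coding exons, 5 in 3′ UTRs and 1 beyond the transcript, against 36.04% of sites in coding exons and 54.3% in 3′ UTRs among the 1759 sites in all protein-coding genes. The Wilson interval of the coding share, 21.27 to 71.99%, included the share over all genes. Where all transcripts were used and a 3′ UTR took precedence, 8 sites were in 3′ UTRs and 3 in coding exons, since the RPL27A, RPLP0 and RPS29 sites lie in the 3′ UTR of other transcripts. The 5′ UTRs of the 81 members sum to 4.81 kb of 110 kb of mRNA, and the site closest to the 5′ end, that of RPS4X, began at nt 176. No site therefore reached the 5′ end where the TOP motif lies. Among the 1759 sites in all protein-coding genes, 1.19% lay in 5′ UTRs and 6.8% in introns on 1 transcript per gene. The Wilson interval for none of 11 sites, with an upper end of 25.88%, included both shares. The absence was therefore not read as avoidance of the 5′ end.

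The coding sites were found in proteins of both subunits. RPLP0, the protein that anchors the P stalk to which translation factors bind, held a coding site. RPS14, a small-subunit protein whose reduced dosage is known from a form of myelodysplastic syndrome, held a site at nt 314 to 340 of 2146 nt, in all 5 coding transcripts. RPS4X, a small-subunit protein encoded on the X chromosome, held one at nt 176 to 197 of 1474 nt, in a stretch that the span of PIN4 overlaps. RPL27A and RPL36, both of the large subunit, held sites at nt 371 to 392 of 4535 nt and at nt 232 to 257 of 607 nt. The deposited list gave these last sites to SNORA45B and LONP1, as transcript ends, although they lie in coding exons of RPL27A and RPL36.

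The remaining sites lay in 3′ UTRs, and 5 of these 6 were held by fewer than 50% of the coding transcripts of their gene. RPL15 held 2 sites, 479 and 701 nt after the end of its coding sequence and 198 nt apart. Both are present in 3 of its 14 coding transcripts, in a stretch that the span of NKIRAS1 overlaps. The RPL38 site lay 678 nt after the coding sequence, 126 nt before the end of an mRNA of 1145 nt, and the site of RPS19, a gene often mutated in Diamond-Blackfan anemia, lay 583 nt after it in an mRNA of 2021 nt. Each of these is contained in 1 of the 6 coding transcripts of its gene. The RPS24 site began 79 nt after the coding sequence and ran 2 nt past the end of the MANE transcript. It holds AATAAA, the hexamer that marks mRNA ends for cleavage, which 1.95% of all listed sites hold, and 7 of its 8 coding transcripts contain the site.

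The RPS29 site differed from the others in place. It lay 6822 nt downstream of the MANE transcript in the genome, in the 3′ UTR of 1 of 6 coding transcripts, 1039 nt after the coding sequence of that long form of 7062 nt. The MANE mRNA itself has 295 nt. The site was also the single member site with a further exact copy in the genome, at chr4:104667193-104667211 within CXXC4-AS1 on the same strand as that gene, so that its reads cannot be assigned to RPS29 by sequence alone.

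**Figure D2:**
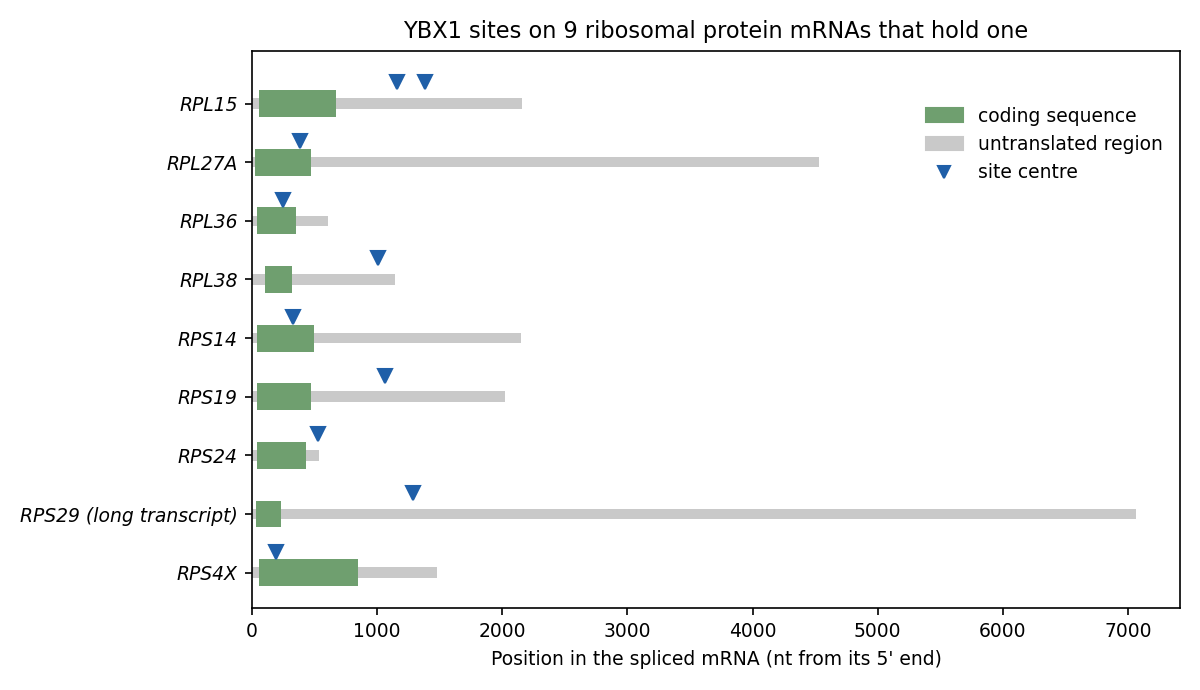
Position of 10 sites (triangles, at the site centre) on the spliced mRNAs of 9 genes that hold one, in nt from the 5′ end; thick green parts are coding and thin grey parts untranslated, drawn on the MANE Select transcript except for RPS29, drawn on its long transcript. The triangles of RPL27A, RPL36, RPS14 and RPS4X lie over coding sequence and none lies over a 5′ UTR.

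Per length, ribosomal protein mRNAs held 0.0906 sites per kb of mRNA (10 sites in 110 kb), mitochondrial ones 0.0699 and all protein-coding genes 0.0227, where a site shared by several genes was counted for each. In coding sequence the densities were 0.120 sites per kb for the cytosolic members, 0.05885 for the mitochondrial ones and 0.0190 for all genes. In 3′ UTRs they were 0.0784, 0.0796 and 0.0283. These are densities over annotated length with no regard to expression. The list holds no expression values, and the part that mRNA abundance has in them was not tested. Members are short, with a median mRNA of 785 nt against 2885 nt over all protein-coding genes. Within the members, those with a site had longer mRNAs (median 1310 nt against 772 nt) and longer 3′ UTRs (median 728 nt against 94 nt) than those without, with ranges that overlapped from 74 to 4066 nt for 3′ UTRs.

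In C and A content, the member sites were close to the rest of the list. C and A made up 62.2% of their 259 bases and 60.6% of the bases of all listed sites, but 49.4% of whole ribosomal protein mRNAs. By site the share ranged from 39.3 to 74.1%. Bases of the same site are not independent, so no interval is given for base content. G made up 11.2% of the member sites, 8.08% of all listed sites and 6.48% of the listed sites in protein-coding genes. In the mRNAs G made up 24.99%, and most of the gap in C and A between member sites and mRNAs went with it. Among the bases other than G, C and A made up 70.0% in the member sites, 65.8% in the whole mRNAs and 72.01% in their coding sequence. Every member site ended in G and 10 of 11 followed a G, as RNase T1 leaves them. Of all listed sites, 87.6% ended in G and 79.2% followed one, and of those in protein-coding genes 92.95% and 84.9%. Their T count ranged from 3 to 9 with a median of 6, beside a median of 7 over all listed sites. The 5 coding sites were richer in G than the other 6, with 18.4% against 4.48%, and none of the other 6 held a G before its last base. The coding share was uneven, as a single site held 10 G. Those of RPL27A, RPL36 and RPS14 held 4 each, and that of RPS4X held 1, its last base.

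The tetramer CANC, printed in capitals above, was present in 5 of 11 member sites and in 53.2% of all listed sites, and 27.2% of all 22-nt windows of ribosomal protein mRNAs hold it. CATC was the commonest form, in 3 of the 5 coding sites (RPL27A, RPS14 and RPS4X) and in none of the other 6, beside 25.2% of all listed sites and 10.2% of windows in the coding sequence of members. CAAC occurred in the second RPL15 site, CACC in the RPL38 site and CAGC in the RPL27A site. The mRNAs hold more G than the sites, and the shares of windows were not corrected for it. A match is only a description of letters, and the other 6 sites hold none.

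**Figure D3:**
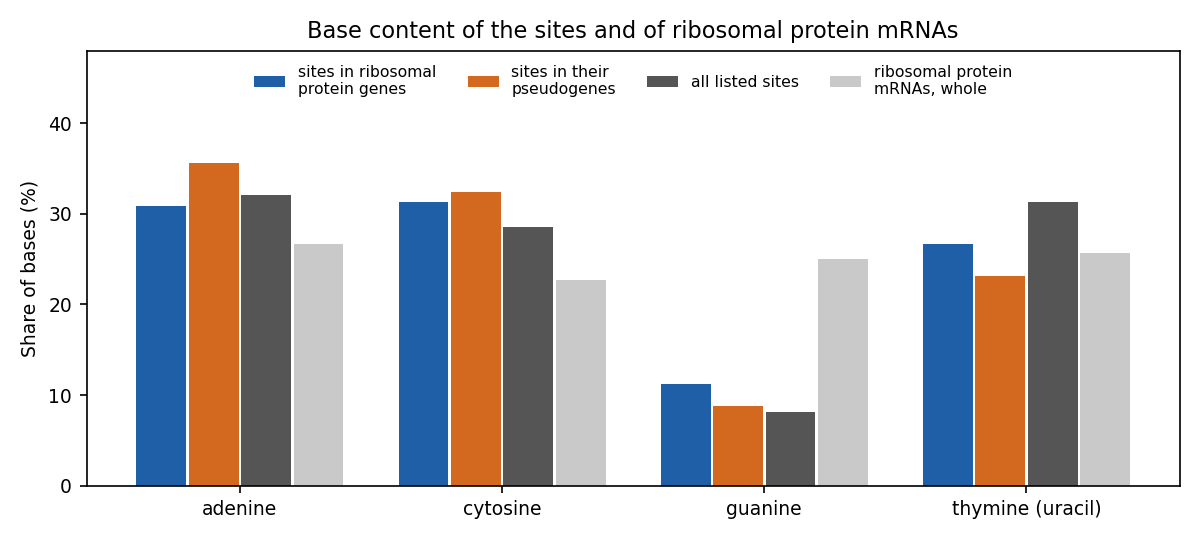
Share of each base in percent in the 11 sites in ribosomal protein genes, the 10 sites in their pseudogenes, all listed sites and the whole ribosomal protein mRNAs; sites wider than 100 nt, none of them in these genes, were left out. G stands at 11.2% in the member sites and 8.08% in all listed sites, against 24.99% in the mRNAs.

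The remaining 71 members had no site. RPLP1 and RPLP2, the partners of RPLP0 in the P stalk, RPSA, also known as the laminin receptor, and RPS27A, made as a fusion with ubiquitin, were among them. To describe how much of each mRNA has a sequence of its own, it was cut into overlapping windows of 22 nt, the median width of a site, and the windows with no other exact copy in the genome were counted. Of all listed sites, 167 of 2054 or 8.13% had a further exact copy. In the coding sequence a median of 15.1% of windows were single-copy over the 81 members (range 0 to 99.6%), against 98.3% in the mitochondrial ribosomal protein mRNAs and 96.3% in those of the ribosome biogenesis factors. The other 5′ TOP mRNAs, of which 33.3% held a site, had a median of 31.7%, and the other ribosome-linked genes one of 37.7%, both nearer to the members. In 3′ UTRs the medians were 67.97% for the members, 96.0% for the mitochondrial ones, 81.4% for the biogenesis factors, 73.8% for the other 5′ TOP mRNAs and 64.6% for the other ribosome-linked genes. For 68 of the 81 members fewer than 50% of coding windows were single-copy, and for 10 none was.

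In the coding sequence the medians of this measure were 23.6% for members with a site and 14.4% for those without. In 3′ UTRs they were 77.4% and 61.0%, and the ranges overlapped in both. Among the members named above, 17.3% of coding windows were single-copy in RPLP1, 57.8% in RPLP2, 4.96% in RPSA and 1.56% in RPS27A. RPLP0, with a site in its coding sequence, stood at 10.8%. The number of processed pseudogenes named for a member had a median of 13 in both sets, and 1571 are annotated in all. How the aligner treated reads with several matches was not tested, nor was the part of copy number in which members held a site.

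**Figure D4:**
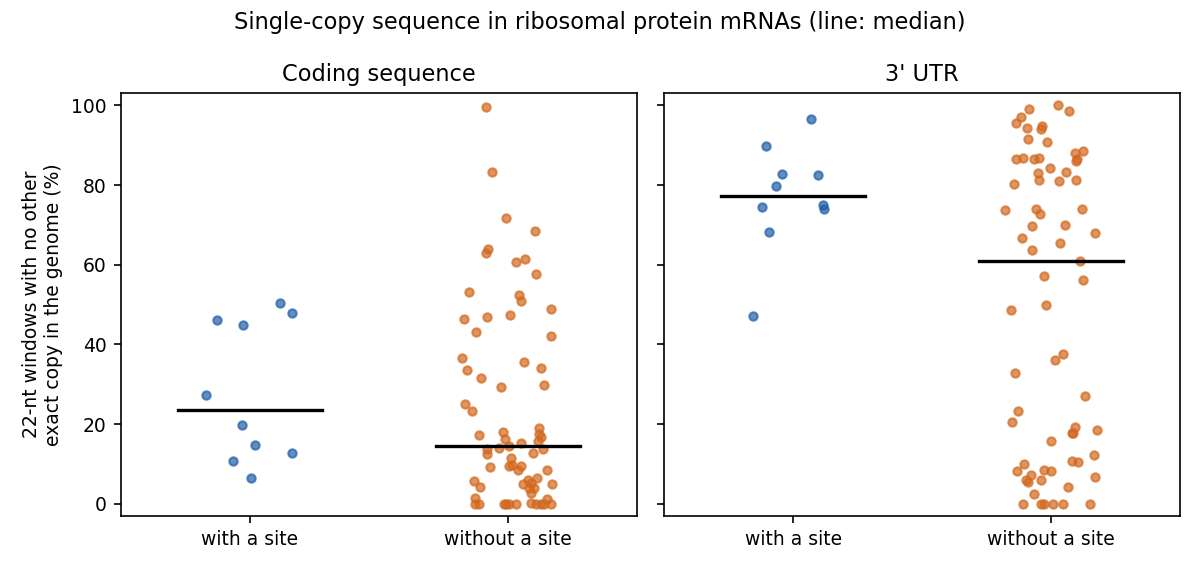
Percent of 22-nt windows of each ribosomal protein mRNA with no other exact copy in the genome, in the coding sequence (left) and the 3′ UTR (right); each point is a gene, 10 with a site in blue and 71 without in orange, and lines are medians. The coding medians lie at 23.6% and 14.4% and the points of both sets overlap.

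The 10 member sites other than that of RPS29 occur once in the genome as exact sequences, but the coding ones have near copies. The RPS4X site recurs with 1 mismatch in 4 of the 23 processed pseudogenes of RPS4X and the RPL36 site in 1 of 20. For RPS14 and RPL27A the closest copy had 2 mismatches. Only pseudogenes named for the gene were searched here, which leaves out the RPS14 copy ENSG00000226396 described below. Of the 3′ UTR sites none had a copy with fewer than 8 mismatches in a pseudogene named for its gene.

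Processed pseudogenes of members held 10 sites and the genes themselves 11. The annotated pseudogenes number 1571 and the genes 81, so these counts do not stand for like shares. The 10 pseudogene sites lay in RPS16P3, RPSAP69, RPL6P14, RPL6P22, RPL31P41, RPS6P16, RPL13P6, RPL15P20, RPS4XP18 and RPL37P4. Another 3 lay in processed pseudogenes that carry no ribosomal protein symbol in GENCODE but match a member mRNA with 1 mismatch: ENSG00000226396, which the deposited list calls RPS14P3, ENSG00000241744, a copy of RPS6, and ENSG00000248288, a copy of RPL5. Of these 13 sites, 11 matched the mRNA of the parent gene with exactly 1 mismatch and none with 0. The 3 without a symbol were taken in by that match itself. Of the 10 in named pseudogenes, 8 matched with exactly 1 mismatch. The RPL13P6 site had 3 mismatches, A7C, T12C and T18A, and the RPS16P3 site had 7 and was not aligned. In these tokens the base of the parent mRNA comes first, then the position counted from the 5′ end of the site, then the base of the pseudogene.

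Selected pairs show what separates the pseudogene site from the parent mRNA. The pseudogene is given first and then the same stretch of the parent mRNA, with the base that differs in capitals, all read from GRCh38 on the RNA strand.
RPL15P20 (chr16:15931921-15931941, minus strand): attccacaCacaaattttttg
RPL15 mRNA: attccacaTacaaattttttg
RPS4XP18 (chr18:22587096-22587112, plus strand): actCtccaacatttttg
RPS4X mRNA: actTtccaacatttttg
RPSAP69 (chr3:196987120-196987137, minus strand): ttaacctaccCaccattg
RPSA mRNA: ttaacctaccTaccattg
RPL6P14 (chr4:104886188-104886214, minus strand): actcacaaaCtttaccaaaaatcaaag
RPL6 mRNA: actcacaaaTtttaccaaaaatcaaag
ENSG00000248288 (chr5:65210787-65210804, plus strand): ttctctcaaCacataaag
RPL5 mRNA: ttctctcaaTacataaag
ENSG00000226396 (chr1:19608388-19608406, plus strand): ccctacacatcCaactccg
RPS14 mRNA: ccctacacatcAaactccg

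In 7 of the 11 sites with 1 mismatch the parent mRNA had T and the pseudogene C, the same change that crosslinked 4SU leaves in reads. These were RPL15P20 (T9C), RPS4XP18 (T4C), RPSAP69 (T11C), RPL6P14 (T10C), the RPL5 copy (T10C), RPL6P22 and RPL31P41. The others were A20C in RPS6P16, A12G in the second RPS6 copy, A12C in the RPS14 copy and A13G in RPL37P4. The RPSAP69 site also lies in an exon of a protein-coding gene on the same strand, and without it 6 of 10 were T to C. Among the 8 in named pseudogenes, 6 were. Over the rest of the same 11 pseudogenes, 714 differences from the parent mRNA were found in 6512 aligned bases outside the sites, and 90 of them, or 12.6%, were T to C. Over all 1550 pseudogenes aligned, 12.2% of differences were. These shares depend on the bases at hand. The parent stretches of the 11 sites held 91 A, 65 C, 65 T and only 12 G, of which 11 were the last base of the site, so that a G had little room to differ. Counted per T of the parent, T to C was found at 7 of 65 T in the sites (10.8%) and at 90 of 1394 T outside them (6.46%). No C of the parent differed in the sites, whereas 14.6% of the C outside them did. The sites with 1 mismatch were chosen for their closeness to the parent, so each holds exactly 1 difference. Rates per T or per C inside the sites are limited by that choice and cannot be compared with those outside. No conclusion is drawn from them. Whether the reads of these sites came from the parent mRNA was not tested.

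**Figure D5:**
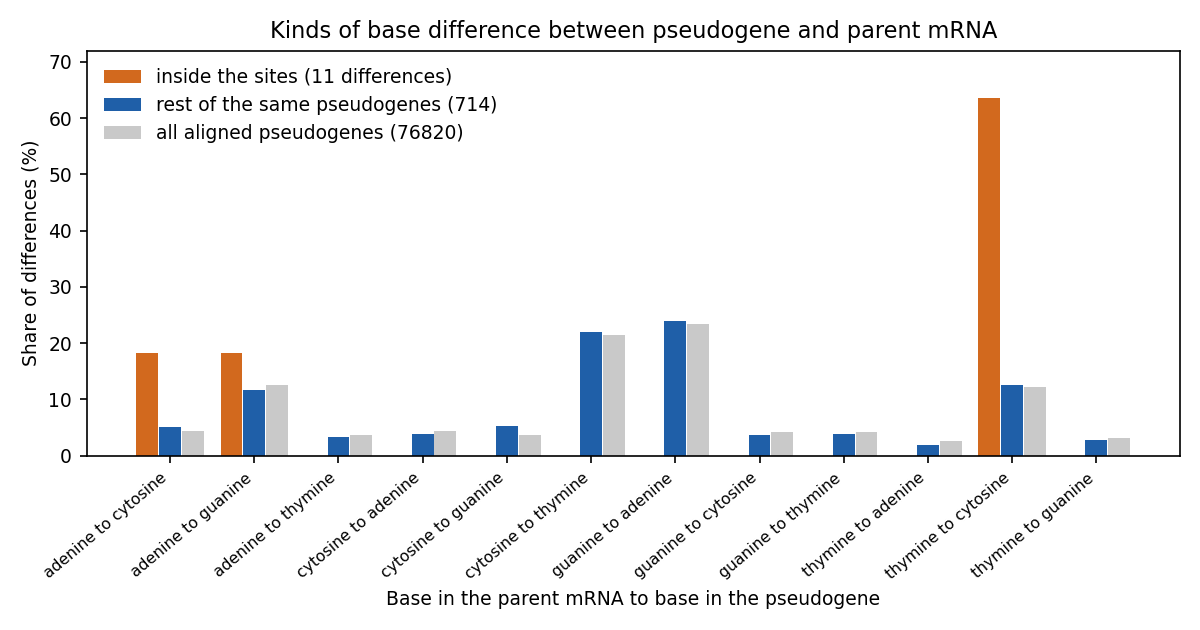
Share in percent of each kind of base difference between parent mRNA and pseudogene, inside the 11 pseudogene sites with 1 mismatch (orange), in the rest of the same pseudogenes (blue, 714 differences) and in all 1550 aligned pseudogenes (grey). Thymine to cytosine makes up 63.6% of the differences inside the sites and 12.6% in the rest of the same pseudogenes, with no account of base composition.

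Outside the sites, the 11 pseudogenes with 1 mismatch aligned over 247 to 861 nt, and the coding sequences of their parents have 294 to 894 nt. How much 3′ UTR these pseudogenes hold was not measured, so a match in coding sequence was not read as a preference. The stretches of parent mRNA that the pseudogene sites match all lay in coding sequence, in 11 of 11. They pointed to 9 parents, of which 6 had no site in their own gene: RPL5, a large-subunit protein that binds a ribosomal RNA before assembly, RPL6, RPL31, RPL37, RPSA, and RPS6, the small-subunit protein phosphorylated by the S6 kinases. RPS6 was matched by sites in both RPS6P16 and ENSG00000241744, which fall on the same stretch, nt 467 to 489 of the RPS6 mRNA. RPL6 was matched by RPL6P14 at nt 780 to 806 and by RPL6P22 at nt 635 to 659. The RPS14 copy matched nt 314 to 332, the first 19 nt of the site in RPS14 itself, whereas RPL15P20 and RPS4XP18 matched coding stretches of RPL15 (nt 423 to 443) and RPS4X (nt 716 to 732) apart from the sites in those genes. The pseudogene sites held 68.1% C and A and 6 of 10 held CANC. Of the 11 sites with 1 mismatch, 10 occur once in the genome, and the exception was that in RPS4XP18 with 2 copies.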

How the data were processed

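PAR-CLIP of YBX1 was performed in HEK293 cells in 2 replicates. Per the study's methods, adapters were removed with cutadapt 1.4.1, the PARA-suite pipeline placed the reads on GRCh38 and on Ensembl transcripts, and BMix called stranded clusters from both replicates together, which the authors annotated with HOMER. The deposited list gives position, strand, gene and annotation of each site. It carries neither read counts nor scores, so depth per site and per replicate is unknown.

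Listed ends were read as 1 past the final base. Genes and transcripts came from GENCODE release 44. Exact copies of sites and of 22-nt windows were searched on both strands of the main chromosomes, and pseudogene sites were placed on the parent mRNA without gaps. Whole pseudogenes were aligned locally. Scripts ran in Python 3.11.15 with pysam 0.24.0 and scipy 1.17.1 and were tested on simulated data. Members and lists were chosen with earlier results of these data known. Every member and every pseudogene with a site was named, with RPLP0, RPLP1, RPLP2, RPSA and RPS27A named in any case, and of the other lists the genes with a site. The alternatives were any overlap, either strand, exons only, names ending in L left out, wider or single-copy sites, deposited names or classes, merging within 50 nt, other transcript choices, and extension by 10 nt. The sequence and position of 1 member site are not reported here.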

Additional observations from a re-analysis of the deposited data

How the results depend on the processing

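The 11 sites and 10 genes were unchanged with any overlap of 1 base, on either strand, in exons only and without the 4 members whose names end in L after the number. Merging sites within 50 nt left 11 sites. Only single-copy sites left 10 sites in 9 genes. The gene names of the deposited list gave 11 sites in 10 genes, and 8 genes were the same ones. Only sites wider than the median of 22 nt left 6 sites in 6 genes. The number of sites in 3′ UTRs, 8 with all transcripts, was 5 with 1 transcript per gene, 6 with coding exons first and 2 with the deposited classes, where 6 of the 11 sites are called transcript ends. The C and A share was 53.9% with sites extended by 10 nt, 70.0% without G and 61.0% in wider sites, beside 54.7%, 65.9% and 62.0% over all listed sites. Pseudogene sites numbered 10 with any overlap, 11 on either strand, where RPSAP11 was added, and 13 with pseudogenes that carry no ribosomal protein symbol, an alternative chosen after seeing the data. No paired analysis was possible because both replicates were pooled into 1 list, and for the same reason neither replicate could be left out. The depth per site is unknown.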

Other observations

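The deposited list also gives the names of 2 members to sites outside their genes. A site called RPL26 lay at chr17:8377024-8377046 on the minus strand, 470 nt past the annotated end of RPL26. A site called RPL21 lay in an intergenic stretch of chromosome 10, whereas RPL21 itself is on chromosome 13. RPL21 has 131 processed pseudogenes, the most of any member, and 0% of the 22-nt windows of its mRNA are without another exact copy in the genome.

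Outside the ribosomal proteins, 20 listed sites lay in processed pseudogenes and in no exon of a protein-coding gene. Of these, 3 were identical to a stretch of a protein-coding mRNA, namely those in RNPS1P1, HNRNPKP1 and ENSG00000219553. A further 13 had 1 mismatch, and in 7 of the 13 it was T in the mRNA and C in the pseudogene, among them EEF1E1P1, BTF3L4P1, VTI1BP1 and TMED10P2. The 7 also include MTND5P3 and MTCO1P40, which matched the mitochondrial MT-ND5 and MT-CO1. The mRNA was the closest protein-coding one and not always that of the parent. For example, the site in PCNAP1 matched PRODH and that in FTH1P26 matched SLC25A44. Whether reads of these sites came from the mRNAs was not tested.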
